A study of Mus musculus with 15 samples.

Results

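The genes described here encode the proteins of the cytosolic ribosome and the eukaryotic initiation factors (eIFs) that load it onto mRNA. They were picked by symbol among RefSeq genes of GRCm38.p6, which mm10 corresponds to. A protein-coding gene counted as a member when its symbol began with Rpl, Rps or Eif and a digit, or with Rpsa or Rplp, leaving out the Rps6k kinases and Rps27l. This gave 146 of 21887 coding genes, 90 of them ribosomal protein genes and 56 initiation factor genes. They include paralogues such as Rpl3l, the eIF2 kinases and the 4E-binding proteins, and 124 core members are left without those.

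The data are chromatin immunoprecipitation sequencing (ChIP-seq) of p53 in wild-type mouse liver, spleen and thymus. Per the labels, each organ has 2 libraries from untreated mice, 2 from mice given 2 Gy of X-rays and taken 3 h later, and 1 input library. Age and strain are not given in the labels. What was analysed is 1 deposited list of scored regions per organ, with 3872 regions for liver, 2604 for spleen and 2405 for thymus. The labels attach each list to all 5 libraries of its organ. The list names refer to irradiation and to IgG, although no library is labelled IgG, and which libraries were used to make a list is not known here. Irradiated and untreated mice could therefore not be compared, there was no replicate spread, and read depth was unknown. A gene counted as having a region when any base of one lay inside it or within 5 kb. Scores are the authors' own, with a scale not given in the sources used here, and appear below as percentiles within one list, so percentiles from lists of different lengths show no change between organs.

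Translation begins when eIF2 brings the initiator tRNA to the small ribosomal subunit. There eIF3 helps hold the complex together, and the eIF4 factors bring the capped mRNA to it. The large subunit then joins with the help of eIF5 and eIF5B. Ribosome production and p53 are linked: free ribosomal proteins, Rpl5 and Rpl11 above all, can bind MDM2, the ubiquitin ligase that degrades p53. Ribosomal protein genes are transcribed at high rates in most tissues from starts that sit in a run of pyrimidines.

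In liver, members carried regions more often than coding genes of like length, while in thymus the shares were nearly equal. A liver region was found for 41 of 146 members, or 28.1% (exact Clopper-Pearson 95% interval 21.0 to 36.1, counting error only). The background was 15.2% of all coding genes. Members are short, with a median length of 4458 bp against 17169 bp for all coding genes, and coding genes weighted to the members' length deciles had a liver region in 11.9% of cases. In spleen 17 members, or 11.6% (6.93 to 18), had a region, against 8.11% of all coding genes and 5.41% after length weighting. In thymus the count was 7, or 4.79% (1.95 to 9.63), against 7.17% and 4.81%. Initiation factor genes stood at 19 of 56 in liver (33.9%, 15.9% at like length) and ribosomal protein genes at 22 of 90 (24.4%, 9.40% at like length). No test of these differences was run, since members are genes of 3 unreplicated lists.

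**Figure D1:**
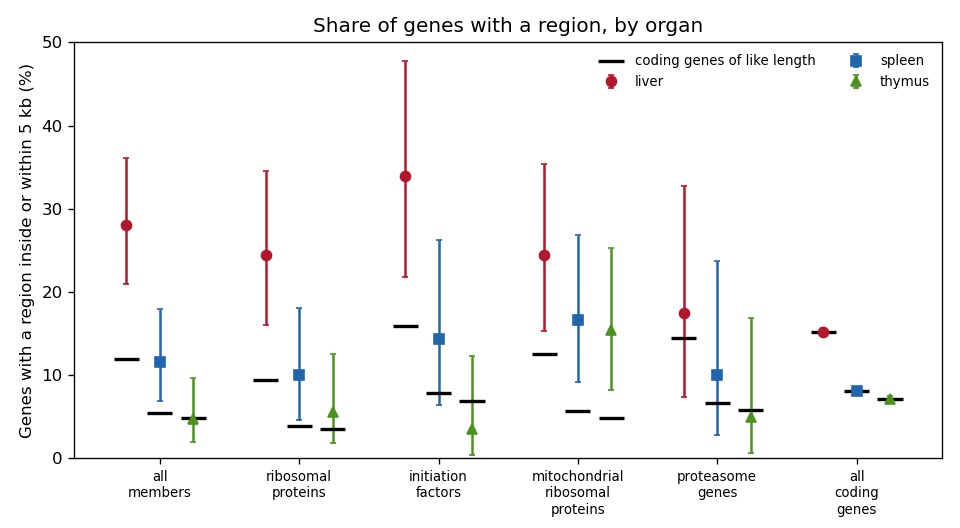
Percent of genes with a region inside or within 5 kb (vertical axis), by gene group and organ; bars are exact 95% binomial intervals and black dashes the length-weighted share of coding genes. The liver share of all members, 28.1%, lies above its dash at 11.9%, and the thymus share, 4.79%, lies at its dash of 4.81%.

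Each member with a spleen or thymus region also had a liver region, which was near the pattern of coding genes at large. Of 3431 coding genes with any region, 21 were in the spleen list only, 12 in thymus only and 67 in spleen and thymus. Of the 41 members, 24 had a region in the liver list only (16.4% of members, against 6.26% of all coding genes), 10 in liver and spleen (6.85%, against 2.15%) and 7 in all 3 lists (4.79%, against 5.56%). The other 105 members had none. The shares of coding genes by combination of lists were not weighted to length. The members in all 3 lists are the 7 with a thymus region, for which the like-length share was 4.81%. The 41 genes drew on 42 distinct regions, since Rps2 and Rpl3l share one and Rpl14 and Rpl35 have a pair each. In 18 of the 42, another coding gene also lay within 5 kb, so the gene that such a region belongs to cannot be told from position. Noncoding genes were left out of that count, and some of the other regions had them nearby. For example, the Rpl14 region in all 3 lists lay within 1 kb of the noncoding gene 5830454E08Rik. The farthest region that still counted lay 4221 bp outside Rpl8 (percentile 44.4 in liver), and the nearest that did not lay 5186 bp outside Rps28 (44.8 in liver, 16.1 in spleen).

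Rps19 had the highest-ranked region of any member, and it was in all 3 lists. Rps19 encodes a small-subunit protein needed for maturation of 18S rRNA. Its region, chr7:24884501-24885250, was also the widest at 750 bp. Its percentile was 98.0 for liver, 97.0 for spleen and 96.7 for thymus. The 3 values are all near the top of their lists. The region crosses the 5′ end of the gene, contains all 3 annotated starts and has no other coding gene within 5 kb.

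The 300-base window around the most downstream of these starts is printed because it held the only exact p53 decamer that lay both in a member's promoter window and inside its region. The decamer is the 10-base unit that p53 response elements carry as a pair, searched here without mismatches. The window is chr7:24884663-24884962 on the plus strand of GRCm38.p6 (RefSeq), written 5′ to 3′ with the decamer in capitals.
Rps19: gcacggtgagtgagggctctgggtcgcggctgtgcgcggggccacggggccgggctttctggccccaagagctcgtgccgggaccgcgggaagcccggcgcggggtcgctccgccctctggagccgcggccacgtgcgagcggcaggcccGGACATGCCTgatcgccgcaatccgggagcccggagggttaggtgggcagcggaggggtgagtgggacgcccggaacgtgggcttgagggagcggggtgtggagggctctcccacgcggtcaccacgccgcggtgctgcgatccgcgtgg
The decamer began 100 bases before that start, within the region of all 3 organs. Exact decamers were not frequent in the members' promoters: 2 of 30 windows over a region held one (6.67%), as did 7 of 107 windows without a region (6.54%) and 7.37% of the windows of all coding genes. The other window over a region was that of Eif2a, where the decamer lay outside the region. By list, the decamer was in 1 of 4 member windows over regions of all 3 lists, in 1 of 20 of the liver list alone and in 0 of 6 of liver and spleen. In other coding genes it was in 31 of 216 windows over regions of all 3 lists (14.4%, against 6.24% of windows without a region at like G and C content) and in 51 of 918 of the liver list alone (5.56%).

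Among small-subunit genes, Rps19 included, 8 of 34 had a liver region, 3 a spleen region and 1 a thymus region, against 3.22, 1.35 and 1.20 for coding genes of like length. Rps12 had one at its start (chr10:23787201-23787350) at percentile 87.6 in liver and 3.97 in spleen. Rps2, whose protein lines the mRNA entry site, had its region 2374 bp outside the gene at 92.9 in liver and 14.8 in spleen (chr17:24724301-24724550). That region lies in Ndufb10, a gene of respiratory complex I, and 3276 bp from the muscle paralogue Rpl3l, so it cannot be assigned to Rps2. Rpsa (33.4), Rps10 (32.1), Rps23 (30.6) and Rps3a1 (2.21) had liver regions alone, all within 1 kb of a start or gene end. The liver percentiles of the group thus ran across nearly the whole list.

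Of 56 large-subunit genes, 14 had a liver region, 6 a spleen region and 4 a thymus region, against 5.24, 2.13 and 1.94 at like length. Rpl14 had a region at its start (chr9:120571501-120571650) at 80.7 in liver and 63.9 in spleen. A further region 2448 bp outside Rpl14 (chr9:120577101-120577350) was in all 3 lists, at 84.6, 20.9 and 5.72. Rpl24 ranked highest of the large-subunit genes, at 94.8, 96.2 and 87.1, but its region (chr16:55962801-55963050) lay 3225 bp outside the gene and inside Gm6958. Rplp2, a gene of the acidic stalk that recruits elongation factors, had a region 4201 bp away (chr7:141443201-141443450; 13.0, 35.0 and 10.7). That one lies in Pidd1, a death-domain gene known as a p53 target. The region 3001 bp outside Rpl31 (chr1:39364801-39364850) had percentiles of 3.87 (liver), 68.0 (spleen) and 12.1 (thymus) and also lay within 5 kb of Npas2, a clock gene.

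Regions at the starts of large-subunit genes were mostly in the liver list alone and of low or middle rank. These were Rpl22l1 (49.5), Rpl35 (41.3), Rpl5 (38.8), Rpl19 (13.7), Rpl10a (8.83) and Rpl22 (7.70). Rpl23, at chr11:97782401-97782550, ranked at 9.87 in liver and 9.68 in spleen. Liver regions 4221 bp from Rpl8 (44.4) and 2320 bp from Rpl17 (20.2) lay nearer to Commd5 and BC031181.

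Of 8 ribosomal proteins listed as binding MDM2, Rpl5 and Rpl23 had a region in liver and Rpl23 one in spleen. Rpl11, Rpl26, Rps3, Rps7, Rps14 and Rps27 had none in any list. Like-length coding genes would give 0.794 of 8 in liver and 0.339 in spleen.

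The 3 subunits of eIF2 were covered in liver. Eif2s1, the alpha subunit whose phosphorylation lowers initiation under stress, had a region over its start (chr12:78862001-78862150) at 74.9 in liver alone, where it also overlaps Atp6v1d. Eif2s2, the beta subunit, had one over its start (chr2:154892801-154893050) at 52.0 in liver and 26 in spleen. For the gamma subunit, Eif2s3y on the Y chromosome had a region 712 bp outside the gene (chrY:1009801-1009850; 92.2 and 25.1), while its X-linked partner Eif2s3x had none. Eif2a, a separate factor that binds initiator tRNA, had a liver region at 67.7 that also overlaps Serp1. In all, 4 of 6 genes of this group had a liver region and 2 a spleen region, against 1.10 and 0.545 at like length. Of 5 genes for eIF2B, the exchange factor that recharges eIF2 with GTP, Eif2b3 had a region (16.7 in liver, 17.1 in spleen). The like-length counts for eIF2B were 0.716 in liver and 0.346 in spleen. The 4 kinases that phosphorylate eIF2 alpha, Eif2ak1 to Eif2ak4, had none in any organ. Fewer than 1 would have one at like length (0.861 in liver, 0.498 in spleen and 0.451 in thymus).

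Of 14 eIF3 genes, 5 had a liver region, 2 a spleen region and 1 a thymus region (2.19, 1.03 and 0.906 at like length). Eif3a, the large scaffold subunit, had a region over its start (chr19:60790601-60790850) at 90.5 in liver and 19.5 in spleen. Eif3k ranked at 86.4 in liver alone (chr7:28981901-28982150), with Map4k1 overlapping the region. Eif3e (15.9) and Eif3j1 (12.9) had low-ranked liver regions at a gene end. The region of Eif3l, 3873 bp outside the gene (chr15:79071201-79071350), was in all 3 lists, low in liver (5.04) and thymus (8.32) and higher in spleen (67.8).

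Among 13 eIF4 genes, 5 had a liver region, 2 a spleen region and 1 a thymus region (2.08, 1.08 and 0.940 at like length). Eif4h, a cofactor of the eIF4A helicase, was the only initiation factor gene with a region at its start in all 3 lists (chr5:134639301-134639550; 58.7, 7.58 and 1.79). The cap-complex scaffold Eif4g1 (66.3) and its relative Eif4g2 (53.3) had liver regions at a gene end. The helicase gene Eif4a2 had one at 15.0 in liver and 2.00 in spleen. The region counted for Eif4a1 (78.9 in liver) lay 4186 bp outside it and in Mpdu1. Eif4e, which binds the cap, and the 4 genes of 4E-binding and 4E-transport proteins had none. For those 4 the like-length counts were also below 1, at 0.610, 0.276 and 0.238.

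Late-acting factors were also covered in liver. Of 4 genes for eIF5, eIF5A and eIF5B, 3 had a liver region and 1 a spleen region (0.621 and 0.307 at like length). Eif5a, whose protein carries hypusine and aids elongation, had a 550 bp region over alternative starts (chr11:69921201-69921750) at 84.9 in liver alone. Eif5b, the GTPase of subunit joining, ranked at 63.1 in liver and 15.9 in spleen. Eif5 ranked at 10.1 in liver. Eif1, a guardian of start codon choice, was 1 of 5 genes of its group with a region (36.8 in liver), and Eif6, which keeps the subunits apart, had none. Like-length counts in liver were 0.625 for the Eif1 group and 0.121 for Eif6.

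**Figure D2:**
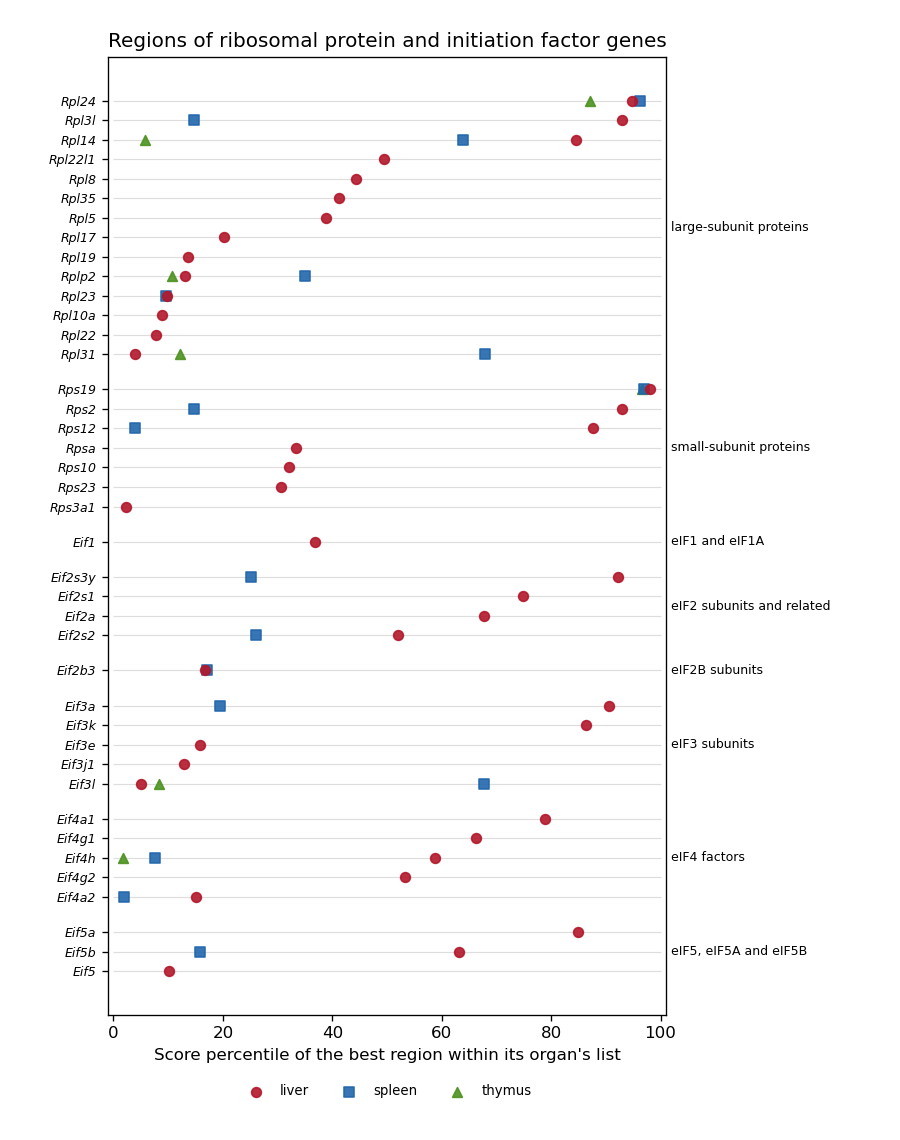
Score percentile of the best region of each of 40 members within the list of its organ (horizontal axis), grouped by role; circles are liver, squares spleen and triangles thymus. Rps19 and Rpl24 are high in all 3 lists, while liver values of the other members run from 2.21 to 92.9.

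Ranks varied widely. Over the 42 liver regions of members the median percentile was 42.8, with an interquartile range of 15.2 to 77.9, against a median of 50.7 for the 2884 liver regions within 5 kb of any coding gene. The 17 spleen regions had a median of 20.9 (42.0 for regions near coding genes) and the 7 thymus regions one of 10.7 (44.8 near coding genes). Regions at or above the 90 percentile numbered 5 of 42 for liver, 2 of 17 for spleen and 1 of 7 for thymus. Near any coding gene they numbered 273 of 2884, 147 of 1608 and 147 of 1457, so the members' counts were near that background.

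Of the members' 42 liver regions, 28 had their midpoint within 1 kb of a member's annotated start. Strand and starts were taken from the RefSeq promoter table, which holds 113 of the 146 members. Of these, 28 had a liver region with its midpoint within 1 kb of a start (24.8%, interval 17.1 to 33.8), against 9.51% of 17492 coding genes. In spleen there were 10 (8.85%, 4.33 to 15.7; background 2.84%) and in thymus 2, Eif4h and Rps19 (1.77%, 0.215 to 6.25; background 2.36%). The 28 midpoints lay close to the start, 22 of them within 100 bp, with 18 upstream and 10 downstream. Other genes were alike in this at 500 bp. Within that distance, 26 members and 1567 coding genes had such a liver region, against 28 and 1663 within 1 kb. The share within 100 bp was not computed for other genes.

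The place of a region differed with the lists it was in. Of 25 distinct regions in the liver list alone, 18 lay within 1 kb of a start and 3 more within 1 kb of a gene end where the strand is not listed. Of 10 in liver and spleen, 8 lay at a start and 1 at such an end. Of the 7 in all 3 lists, 2 did (Eif4h and Rps19), and the other 5 lay 2448 to 4201 bp outside Rpl14, Rpl31, Rpl24, Eif3l and Rplp2. The difference was not tested. The same split was not made for regions near other coding genes, so whether it is particular to members is not known here. These 5 regions are what raises the thymus count from 2 to 7 members between windows of 1 kb and 5 kb. At 1 kb, members stood at 1.37% in thymus against 3.44% at like length, and at 21.9% against 9.5% in liver. At 20 kb the order in thymus was the other way, with 22 members (15.1%) against 9.49% at like length.

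**Figure D3:**
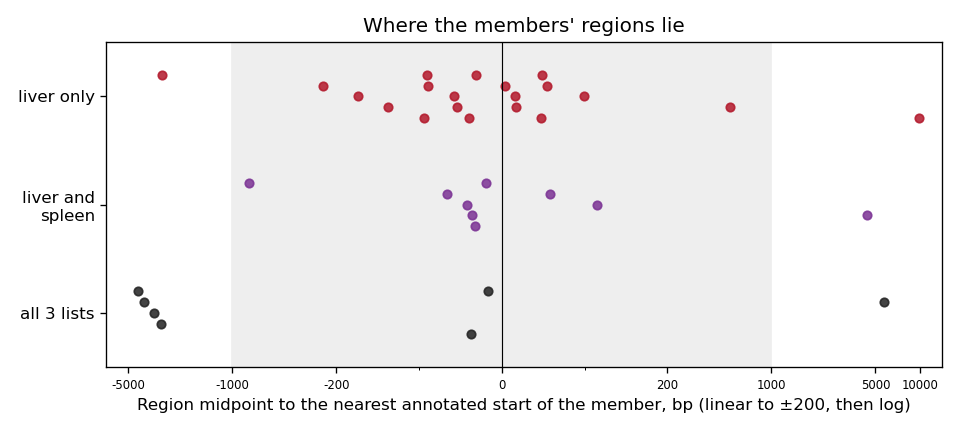
Distance in bp from the nearest annotated start of the member to the midpoint of each region (horizontal axis, linear to 200 bp and logarithmic beyond; negative is upstream), by the lists that hold the region; shading marks 1 kb. Regions of the liver list alone gather at the start, and 5 of 7 regions in all 3 lists lie outside the shading.

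**Figure D4:**
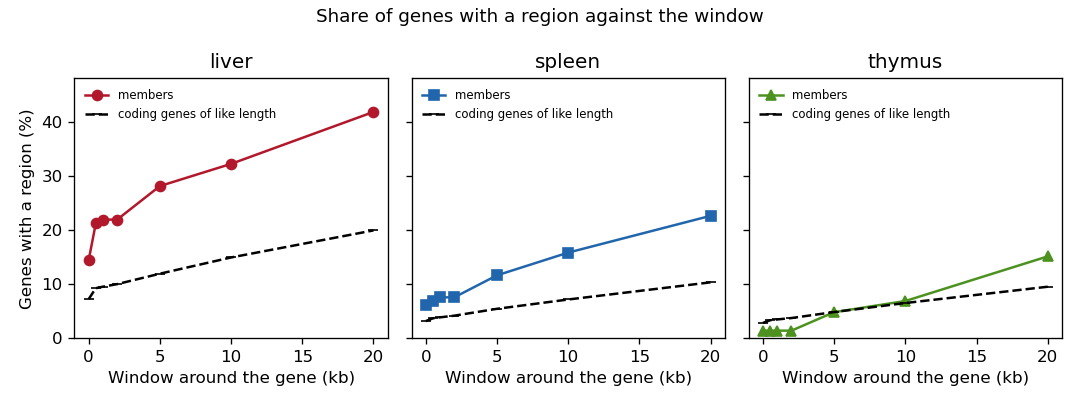
Percent of genes with a region (vertical axis) against the window around the gene in kb, for the 146 members (coloured symbols) and for coding genes weighted to the same lengths (dashed). The liver line goes from 14.4% with no window to 28.1% at 5 kb and lies above the dashed line throughout; the thymus line lies at 1.37% up to 2 kb, below its dashed line, and at 15.1% at 20 kb, above it.

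Some of the promoter windows under the regions held letters of an NRF1-type element, which the choice of members did not use. Windows ran from 250 bases before to 50 after a start, and 30 windows of 24 members overlapped a region. The letters GCATGCGC, part of the palindromic element of nuclear respiratory factor 1 (NRF1), were found on either strand in 5 of the 30 (16.7%). They were found in 1 of 107 member windows without a region (0.935%, Rpl37a) and in 2.71% of all 32851 windows. The 5 were those of Eif2s1, Eif3k, Eif4h, Rpl5 and Rpl10a, and in the first 4 the letters lay inside the region. The shorter run TGCGCA, which overlaps the same element and was chosen after the data were seen, was in 17 of 30 windows (56.7%), covering 15 of 24 genes. In Eif3j1, Eif4g1, Rpl10a and Rpl14 this run lay outside the region. TGCGCA was in 10 of 107 windows without a region (9.35%). By list, GCATGCGC was in 4 of 20 windows of the liver list alone, 0 of 6 of liver and spleen and 1 of 4 of all 3 lists, and TGCGCA in 13 of 20, 4 of 6 and 0 of 4.

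This was not a property of these genes alone. In windows of other coding genes over a region, GCATGCGC was present in 351 of 1513 (23.2%) and TGCGCA in 786 (51.9%), against 1.99% and 6.41% of 19613 windows without one. Windows over a region were richer in G and C, with a median of 63.8% for members against 58.0% for members without a region. Weighted to that composition, coding windows without a region held GCATGCGC in 2.57% and TGCGCA in 8.55% of cases. The weighting did not cover CG pairs, which both runs contain. Their median was 27 per member window over a region and 21 per member window without one. Windows of one gene overlap and are not independent, and a match is a description of letters, not of a bound factor.

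Windows of 7 members are printed to show the feature under regions of different lists, with GCATGCGC (on either strand) and TGCGCA in capitals. Sequences are RefSeq promoters of GRCm38.p6, 5′ to 3′ on the strand of the gene, each with its annotated start 50 bases before the right-hand end. Eif3k, Eif2s1, Rpl5 and Eif5a are from the liver list alone, Eif3a and Rps12 from liver and spleen, and Eif4h from all 3 lists. They lie at chr7:28981839-28982138 (minus strand), chr12:78861822-78862121 (plus), chr5:107900278-107900577 (plus), chr11:69921337-69921636 (minus), chr19:60790644-60790943 (minus), chr10:23787160-23787459 (minus) and chr5:134639360-134639659 (minus).
Eif3k: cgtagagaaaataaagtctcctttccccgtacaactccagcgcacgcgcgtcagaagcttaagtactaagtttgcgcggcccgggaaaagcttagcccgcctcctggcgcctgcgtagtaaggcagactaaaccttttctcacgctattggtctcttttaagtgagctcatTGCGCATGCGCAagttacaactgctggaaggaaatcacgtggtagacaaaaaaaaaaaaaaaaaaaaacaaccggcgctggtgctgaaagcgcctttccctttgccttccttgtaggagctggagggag
Eif2s1: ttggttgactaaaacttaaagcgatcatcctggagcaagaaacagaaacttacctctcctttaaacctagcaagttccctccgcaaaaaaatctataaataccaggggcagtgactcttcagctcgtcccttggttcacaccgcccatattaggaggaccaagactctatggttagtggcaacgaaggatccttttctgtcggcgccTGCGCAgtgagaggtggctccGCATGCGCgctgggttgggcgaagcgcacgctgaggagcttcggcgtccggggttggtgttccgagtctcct
Rpl5: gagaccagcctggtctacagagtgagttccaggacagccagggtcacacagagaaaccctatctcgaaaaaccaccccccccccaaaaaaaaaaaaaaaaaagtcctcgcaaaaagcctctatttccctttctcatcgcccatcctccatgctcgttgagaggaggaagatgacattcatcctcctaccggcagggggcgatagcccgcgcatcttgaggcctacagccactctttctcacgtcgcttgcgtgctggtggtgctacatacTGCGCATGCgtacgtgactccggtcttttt
Eif5a: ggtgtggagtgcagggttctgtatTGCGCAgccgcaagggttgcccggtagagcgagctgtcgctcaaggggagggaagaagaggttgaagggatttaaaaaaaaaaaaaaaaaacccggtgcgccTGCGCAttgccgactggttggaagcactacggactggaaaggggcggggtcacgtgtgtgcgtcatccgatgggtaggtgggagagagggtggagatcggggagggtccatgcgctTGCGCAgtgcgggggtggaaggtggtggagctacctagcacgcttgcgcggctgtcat
Eif3a: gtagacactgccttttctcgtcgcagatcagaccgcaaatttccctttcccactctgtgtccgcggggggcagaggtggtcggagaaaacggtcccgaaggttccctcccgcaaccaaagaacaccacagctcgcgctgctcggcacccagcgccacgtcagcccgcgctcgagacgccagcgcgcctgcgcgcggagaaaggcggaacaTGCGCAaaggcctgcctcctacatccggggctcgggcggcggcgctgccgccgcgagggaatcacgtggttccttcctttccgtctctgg
Rps12: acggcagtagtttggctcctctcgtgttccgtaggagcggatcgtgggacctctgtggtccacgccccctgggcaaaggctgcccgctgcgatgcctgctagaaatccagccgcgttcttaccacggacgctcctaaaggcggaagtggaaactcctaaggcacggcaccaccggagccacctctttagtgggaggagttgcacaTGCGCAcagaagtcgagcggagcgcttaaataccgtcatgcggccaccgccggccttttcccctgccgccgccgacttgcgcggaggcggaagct
Eif4h: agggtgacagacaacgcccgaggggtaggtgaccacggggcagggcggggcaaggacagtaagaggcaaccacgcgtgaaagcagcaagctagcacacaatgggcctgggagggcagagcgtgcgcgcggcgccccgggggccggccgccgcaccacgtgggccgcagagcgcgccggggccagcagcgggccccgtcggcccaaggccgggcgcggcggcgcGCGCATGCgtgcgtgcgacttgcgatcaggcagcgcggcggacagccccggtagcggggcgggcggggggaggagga
In Eif3k the palindrome was complete, with TGCGCA beginning both 79 and 73 bases before the start. In Eif3a and Rps12 a single TGCGCA began 40 and 45 bases before it. Eif5a carried TGCGCA in 3 places, and Rps19, printed above, had neither run in any of its windows.

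Other motifs were sought in the same windows. CCGGAAG, the core bound by ETS factors, was present in 45 of 137 member windows (32.8%, against 11.6% of coding windows and 8.86% of all windows). It was in 5 of 30 windows over a region (16.7%) and 40 of 107 without one (37.4%). In other coding genes the order was the other way, with 354 of 1513 windows over a region (23.4%) against 10.5% without one, or 15% at like G and C content. CTTTCC, a pyrimidine run, was in 54 of 137 (39.4%, against 26.6% of all windows), with 46.7% over a region and 37.4% without. The YY1-type letters ATGGCGGC were in 0 of 30 windows over a region and 5 of 107 others (2.24% of all windows). CCAAT was in 30.0% and 29.0%, and TATAAA in 6.67% and 10.3% (37.4% and 13.6% of all windows). CATG, the centre of many p53 decamers and contained in GCATGCGC, was in 66.7% and 49.5% (61.1% of all windows).

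**Figure D5:**
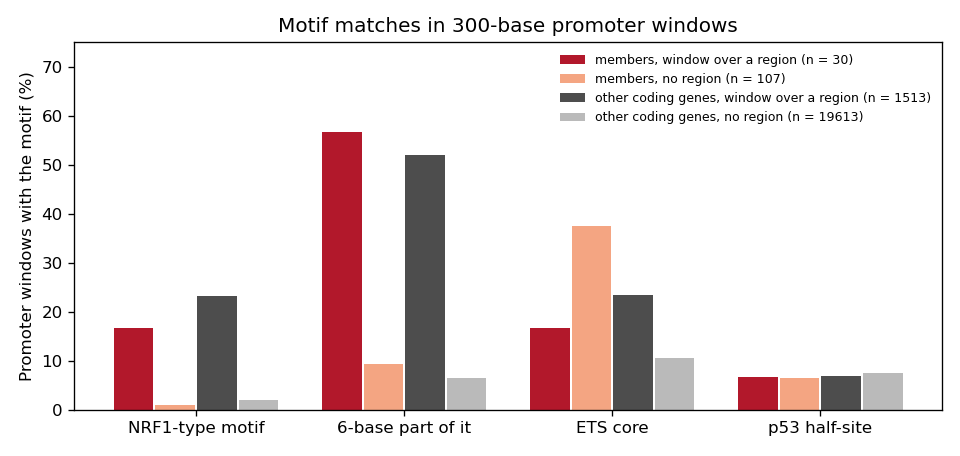
Percent of 300-base promoter windows with a motif on either strand (vertical axis), for windows of members and of other coding genes over a region or without one. The NRF1-type motif and its 6-base part are more frequent over regions in both gene groups (16.7% and 56.7% for members), while the p53 decamer (named p53 half-site in the plot) lies between 6.54% and 7.41% in all 4, where regions of all lists are pooled.

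Mitochondrial and proteasome genes were counted in the same way. Mitochondrial ribosomal protein genes, which serve the separate ribosome of mitochondria, had a liver region in 19 of 78 cases (24.4%, 12.6% at like length) and proteasome genes in 7 of 40 (17.5%, 14.5% at like length). In spleen they stood at 13 of 78 (16.7%) and 4 of 40, against 5.66% and 6.70% at like length. In thymus the mitochondrial group stood at 12 of 78 (15.4%, interval 8.21 to 25.3), against 4.79% (1.95 to 9.63) of members, and the proteasome group at 2 of 40. The like-length shares there were 4.90% and 5.81%. Within 1 kb of a start, 18.8% of 69 mitochondrial and 18.2% of 33 proteasome genes had a liver region, against 24.8% of 113 members. In spleen the shares were 8.70%, 9.09% and 8.85%, and in thymus 8.70%, 6.06% and 1.77%. Of genes with any region, 24 of 41 members were in the liver list only (58.5%), against 3 of 20 mitochondrial genes (15.0%), 2 of 7 proteasome genes and 39.9% of all coding genes. These differences were not tested.

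Other genes of the translation pathway were also covered in liver. Of 21 genes of elongation, termination and recycling, 10 had a liver region, 3 a spleen region and 2 a thymus region (3.03, 1.42 and 1.21 at like length). Hbs1l, a factor of ribosome rescue, was in all 3 lists at 74.3, 11.1 and 5.86. Of 23 ribosome biogenesis genes, the counts were 9, 5 and 2 (3.45, 1.61 and 1.35 at like length). In all 3 lists were Sbds, which helps release eIF6 from new large subunits, at 28.7, 0.691 and 17.3, and Polr1b, an RNA polymerase I subunit, at 33.5, 40.0 and 41.7 with its region 2541 bp outside. Both regions have other coding genes nearby (Tyw1 and Chchd5). The 16 genes of mTORC1 control gave 7, 5 and 3 (2.83, 1.56 and 1.41 at like length), a list that holds known p53 targets such as Sesn1, Sesn2 and Ddit4. Its genes in all 3 lists were Ddit4 (82.6, 80.0 and 79.3), the S6 kinase gene Rps6kb1 (82.0, 63.7 and 37.4) and Tsc2 (43.3, 95.4 and 63.3). The Ddit4 region lay 1025 bp outside the gene, and the Rps6kb1 region also lay within 5 kb of Tubd1.

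Expression and chromatin accessibility of the 3 organs were not analysed here, and their part in these counts was not tested. List length and the share of gene ends in a list differ between organs and cannot be told apart from an organ's own pattern.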

How the data were processed

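Regions of p53 ChIP-seq in wild-type mice were analysed, with 1 deposited list for each of liver, spleen and thymus. The score in each list is the authors' deposited value, in a table without a header. The submitters' processing notes name the build as mm10. Which aligner, region caller and control were used, and whether libraries were pooled, was not given in the sources used here. Depth is unknown, so no precision from depth can be given. Region starts, counted from 0 in the lists, were converted to 1-based positions. Scores were converted to rank percentiles within a list, ties averaged.

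Genes were those of RefSeq GRCm38.p6 on autosomes and sex chromosomes, without exons, so a place inside a gene could not be called exonic or intronic. Like-length shares weight the share of coding genes with a region in each of 10 length bins by the members' lengths. Intervals are exact Clopper-Pearson at 95%. Motifs were sought on both strands of 300-base RefSeq promoter windows, and composition weighting used 10 bins of G and C content. The placing of regions was tested on simulated data. Python 3.11.15, pandas 2.3.3, numpy 2.4.6, scipy 1.17.1 and matplotlib 3.10.9 were used.

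No test across genes was run. The members, lists and motifs were chosen with earlier results of these data known. Members with a region in any list are named, except 1 that is not reported here by name, and others by subgroup counts, with the MDM2-binding and eIF2 kinase genes named. Genes of other lists are named when present in all 3 lists. Eif4e, Eif6, Eif2s3x, Rpl37a and Rps28, and the p53 targets Sesn1 and Sesn2, were named after their values were seen. Alternatives covered the window, score threshold, list length, overlap rule, member set, length bins and distance to the start.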

Additional observations from a re-analysis of the deposited data

How the results depend on the processing

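Of 40 alternatives over 11 results, 22 kept a count within 1.5 times its main value or, for a like-length share, kept it within the exact 95% interval of that share over 21887 coding genes. The liver count of 41 members was 21 with no window, 19 in the upper 50% of regions by score, 23 with lists of equal length and 24 without regions near another coding gene. The like-length shares in the first 3 settings were 7.20%, 6.65% and 7.97%, below the members' 14.4%, 13.0% and 15.8%. The spleen count of 17 was 11 with 1 kb, 9 with no window, 5 in the upper 50% and 11 without regions near another gene. The first 3 are 7.53%, 6.16% and 3.42%, against like-length 3.83%, 3.14% and 1.95%. The thymus count of 7 was 2 with 1 kb, no window or the upper 50%, and 4 without regions near another gene. The first 3 are 1.37% each, against like-length 3.44%, 2.80% and 1.64%. A like-length share was not computed for the setting without regions near another gene, so its counts in each organ stand without a background. Without length weighting the background was 15.2%, 8.11% and 7.17%. Members in the liver list only numbered 13 with equal list lengths, against 24 (8.90% of members, 4.58% of coding genes). Those in all 3 lists numbered 2 in the upper 50% (1.37%, coding genes 1.57%) and 3 with equal lengths (2.05%, coding genes 3.74%), against 7. The coding-gene shares for the liver list only and for all 3 lists were not weighted to length. Fewer regions or a narrower window lower a count by construction. No paired analysis was possible because each organ has 1 list, with no values per library. Leaving out replicates was not possible for the same reason.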

Other observations

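Some members host small nucleolar RNA (snoRNA) genes, which guide chemical modification of ribosomal RNA, in their introns. A snoRNA gene lay within 37 members, and 14 of these had a liver region (37.8%), against 27 of 109 others (24.8%). In spleen the counts were 6 of 37 and 11 of 109, and in thymus 1 of 37 and 6 of 109. Among ribosomal protein genes alone, the liver shares were 8 of 30 (26.7%) and 14 of 60 (23.3%).

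Ribosomal protein genes have many near-identical pseudogenes, and how reads matching several copies were placed is unknown here. Of 335 pseudogenes with a symbol of the members' form, 0 overlapped a region in any of the 3 lists. Overlap was also rare among all 10429 annotated pseudogenes, with 33 for the liver list, 24 for spleen and 22 for thymus. A count of 0 of 335 is therefore near that background, and the placing of such reads was not tested. Within 5 kb of a liver region were 9 of the 335 (2.69%), against 1.85% of all annotated pseudogenes. For spleen and thymus they were 8 (2.39%, against 1.35%) and 5 (1.49%, against 1.23%).

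Ranks were also taken among the regions that a pair of lists shares, so that both rankings have equal length. Among 2368 regions of liver and spleen, the 17 of members had a median percentile of 60.3 in liver and 21.5 in spleen. Rps12 was at 83.0 and 4.22, Eif3a at 86.2 and 20.2, and Rpl31 at 3.42 and 66.9. The value of Rps19 was 96.7 in both. Of the 17 regions, 11 ranked higher in liver, Rps19 among them by 0.021, and 6 in spleen. Of 7 regions shared by liver and thymus, 4 ranked higher in liver and 3 in thymus. For spleen and thymus, 6 of 7 ranked higher in spleen and 0 in thymus. Shared regions near other coding genes were not ranked in this way, so these counts have no background. In the full lists, regions near any coding gene had a median percentile of 50.7 in liver and 42.0 in spleen. Genes were chosen for mention here after their values were seen.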
